A study of Mus musculus with 4 samples.

Results

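The 8 genes described here are noncoding RNAs that stay in the nucleus, Malat1, Neat1 and Kcnq1ot1, and noncoding genes that carry small nucleolar RNAs (snoRNAs) in their introns, Gas5, Snhg1, Snhg6, Snhg8 and Snhg12. They were found by their symbols among the 52459 genes of the count table, and they were chosen on how they differed between the ages in these same 4 libraries. Their differences between the ages are therefore a description, and no test of them is read as support. The libraries held full-length RNA-seq of intestinal stem cells (ISCs) of WT C57/Bl6 mice aged 2 months (2mth, young) or 22 months (22mth, old), with 2 libraries per age and the cells of 5 pooled animals in each library. ISCs were sorted from small intestinal crypts by the SM6 strategy, which takes CD31-, CD45-, EPCAM+, CD166+ cells with medium CD24, high CD44 and EPHB2 and low GRP78. The RNA was copied by SPIA, a linear amplification, without molecular identifiers. A pool hides the spread between its animals, so the errors below are over pools: an SD at 1 age is over 2 pools, and the SE of a fold change comes from a fit over all 4.

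Many long noncoding RNAs act in the nucleus where they are made. Malat1 is held in nuclear speckles, bodies rich in splicing factors, and Neat1 is the scaffold of paraspeckles, bodies that hold RNA-binding proteins. Kcnq1ot1 is an imprinted RNA, made from the paternal allele antisense to the potassium channel gene Kcnq1, and it silences neighbouring genes in cis. The snoRNA hosts are spliced: their introns give the snoRNAs that guide modification of ribosomal RNA, and the spliced RNA left over is often degraded by nonsense-mediated decay (NMD), a pathway that needs translation.

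Malat1 and Neat1 lie next to each other on chromosome 19, with 22035 bases between them on the minus strand (GRCm38, GENCODE vM21). Malat1 spans chr19:5795690-5802672 and Neat1 spans chr19:5824708-5845478. Malat1 and the long isoform of Neat1 are known to end without a poly(A) tail, whereas the short Neat1 isoform, counted in the same row, is polyadenylated. The ends without a tail form a triple helix from U-rich tracts and an A-rich tract. Their 3′ stretches are shown because these tracts can be read in them, at chr19:5795982-5796070 for Malat1 and chr19:5824708-5824802 for Neat1. Capitals mark the 3 words of at least 10 bases that both hold in the same order.
Malat1: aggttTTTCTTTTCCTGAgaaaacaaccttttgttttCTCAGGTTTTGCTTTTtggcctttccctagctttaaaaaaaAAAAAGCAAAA
Neat1: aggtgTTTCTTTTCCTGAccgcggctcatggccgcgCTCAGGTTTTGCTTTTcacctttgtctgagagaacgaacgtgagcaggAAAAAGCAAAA
Among the 55450 genes of the transcript annotation, 2 held all 3 words in this order with at most 60 bases between them, namely Malat1 and Neat1. The middle word of 16 bases occurred in transcripts of these 2 genes, whereas the first word of 13 bases occurred in 21 genes and the last of 11 bases in 376.

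Genes for the translation machinery often have a start site within a run of C and T, the 5′ terminal pyrimidine tract. The starts of the snoRNA hosts are shown because several hold this run beside a TATA box. The windows run from 45 bases before the RefSeq start (GRCm38.p6) to 25 bases from it, and capitals mark TATA, searched from 40 to 21 bases before the start, and a C followed by at least 4 C or T that begins within 5 bases of the start. TATA reads the same on both strands, and the tract was read on the strand of the gene.
Gas5, chr1:161035121-161035190, plus strand: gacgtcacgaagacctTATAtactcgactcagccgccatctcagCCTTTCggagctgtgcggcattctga
Snhg8, chr3:123508312-123508381, minus strand: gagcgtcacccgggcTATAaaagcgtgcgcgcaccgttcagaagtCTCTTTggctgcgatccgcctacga
Snhg12, chr4:132308633-132308702, plus strand: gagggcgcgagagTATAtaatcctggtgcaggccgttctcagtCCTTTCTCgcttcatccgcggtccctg
Snhg1, chr19:8723442-8723511, plus strand: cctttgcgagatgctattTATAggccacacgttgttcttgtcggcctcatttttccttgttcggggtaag
Gas5, Snhg8 and Snhg12 held both TATA and the tract, and Snhg1 held TATA alone. Of all 32851 RefSeq promoter windows, 5.34% held TATA, 18.3% held the tract and 1.03% held both. The windows of Malat1, of Kcnq1ot1 and of a second, upstream Gas5 start held neither. A match is a description of these letters only. Neat1 and Snhg6 had no entry in the promoter table.

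Total counts were 11662654 and 13394558 in the young and 15975698 and 14231979 in the old libraries. Mitochondrial transcripts took 62.6% and 65.7% of the young and 73.8% and 72.9% of the old counts, each with a 95% Wilson interval at most 0.0555 percentage points wide that covers counting error only. Values are given as normalized CPM, in which each count is divided by the library total after scaling by TMM, a method that sets the bulk of genes equal between libraries. The summed level of 11 ISC markers was 3604 and 3396 CPM in the young and 3289 and 3446 CPM in the old pools. The summed level of 8 enterocyte markers was 388 and 519 CPM in the young against 880.2 and 804 CPM in the old pools, and that of 6 Paneth cell markers was 925 and 715 CPM against 2062 and 800.1 CPM. The 14 leukocyte markers summed to 11.5 and 13.98 CPM in the young against 21.9 and 21.6 CPM in the old pools, with no overlap, and had Cd3d, Cd4, Cd79a, Adgre1 and Tyrobp among those at 0 in every library, and the endothelial markers to at most 0.573 CPM, with Cdh5 and Kdr at 0. Of the markers tested, 0 of 11 ISC, 3 of 8 enterocyte, 2 of 6 Paneth cell, 1 of 3 tuft and 1 of 1 leukocyte markers were called, each higher with age, and their part in the differences below was not tested. The 5 sorting markers (Epcam, Alcam, Cd44, Cd24a and Hspa5) summed to 1068 and 1033 CPM in the young and 1222 and 1299 CPM in the old pools, with 1 called higher. Hspa5 encodes GRP78, which was selected as low, so this sum mixes markers selected in different directions. The 7 goblet cell markers summed to 1945 to 2657 CPM with the ages overlapping. The 8 enteroendocrine, 5 tuft and 5 stromal markers summed to at most 151, 8.40 and 1.46 CPM. In such pools, fewer cells of a type and less RNA per cell cannot be told apart.

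Each of the nuclear RNAs was lower in both old pools than in both young pools. Malat1 had 1414 and 1435 CPM in the young and 1093 and 1004 CPM in the old libraries. Its young pools differed little, and the ages did not overlap. The means were 1424 ± 14.3 CPM (SD, n = 2) and 1049 ± 63.1 CPM (SD, n = 2), a log2 fold change of -0.44 ± 0.10 (SE), or 0.736 times the young level.

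Neat1 had 121 and 124 CPM in the young and 94.2 and 79.1 CPM in the old libraries. The ages again did not overlap, with means of 122 ± 1.91 CPM and 86.7 ± 10.7 CPM (SD, n = 2 each). The log2 fold change was -0.50 ± 0.12 (SE), or 0.708 times the young level. The count of Neat1 over that of Malat1 needs no scaling between libraries, and it was 0.0856 and 0.0863 in the young and 0.0862 and 0.0788 in the old libraries. The ratios overlapped between the ages.

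Kcnq1ot1 had 703 and 559.8 CPM in the young and 459.9 and 419 CPM in the old libraries. Its young pools stood further apart than those of Malat1 or Neat1, yet both lay above both old pools. The means were 631 ± 101 CPM and 439 ± 29.1 CPM (SD, n = 2 each), a log2 fold change of -0.52 ± 0.12 (SE) that was -0.35 without young replicate 1 and -0.68 without young replicate 2. The annotation gives Kcnq1ot1 as 1 unspliced exon of 93092 bases, chr7:143203458-143296549 on the minus strand, inside Kcnq1, with which it shares 121 exonic bases. The strand setting of the counting is not given in the sources used here, so reads from Kcnq1 introns may be in this count. The row of Kcnq1, which counts its spliced exons, held 977 and 935 reads in the young and 797 and 666 in the old libraries. The ratio of Kcnq1 to Kcnq1ot1 counts was 0.0959 and 0.111 in the young and 0.131 and 0.130 in the old libraries, with no overlap between the ages. Since Kcnq1ot1 was chosen on this contrast, nothing is read from that.

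**Figure D1:**
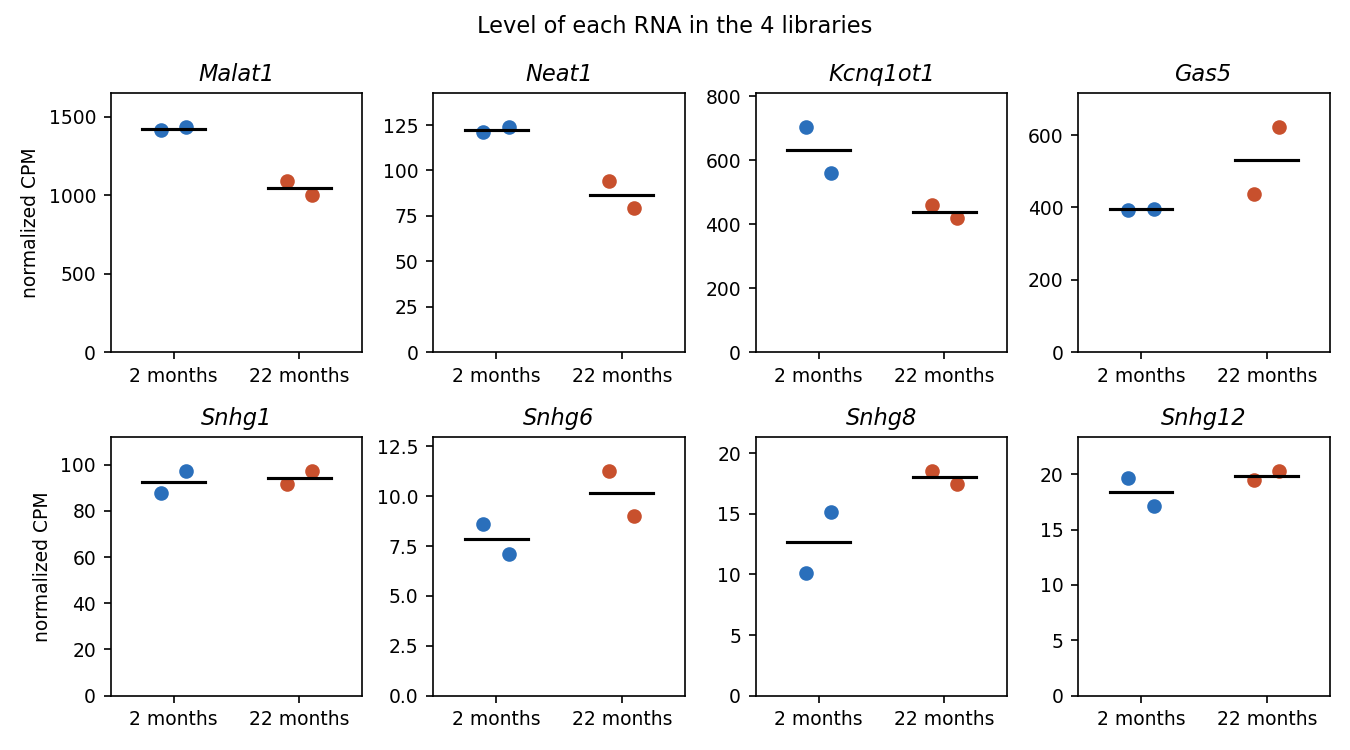
Normalized CPM (vertical axes, each from 0) of the 8 RNAs in the 2 young (blue) and 2 old (red) libraries, with a bar at each mean. Malat1, Neat1 and Kcnq1ot1 lie lower in both old libraries, and the old libraries of Gas5 stand apart from each other.

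The snoRNA hosts did not follow the nuclear RNAs. Gas5, which carries snoRNAs in most of its introns, had 394 and 395 CPM in the young and 438 and 622 CPM in the old libraries. The young pools were nearly equal, and the larger part of the difference lay in 1 old pool. The means were 394 ± 0.696 CPM and 529.9 ± 129.8 CPM (SD, n = 2 each), with a log2 fold change of 0.43 ± 0.13 (SE) that became -0.06 when libraries were scaled by total counts. Without old replicate 2 the log2 fold change was 0.15, and without old replicate 1 it was 0.66. The count of Gas5 over that of Malat1, free of any scaling, was 0.279 and 0.275 in the young and 0.401 and 0.619 in the old libraries. Both old ratios lay above both young ratios, but Gas5 and Malat1 were both chosen on this contrast, so nothing is read from it.

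Snhg8 had 10.1 and 15.2 CPM in the young and 18.5 and 17.4 CPM in the old libraries, from 147 to 245 counts per library. Its ages did not overlap, but its young pools stood further apart from each other than its old pools. The log2 fold change was 0.51 ± 0.20 (SE), against 0.02 with scaling by total counts, and it was 0.25 without young replicate 1 and 0.82 without young replicate 2. Snhg6 had 8.62 and 7.09 CPM in the young and 11.3 and 9.01 CPM in the old libraries, from 107 to 149 counts, with a log2 fold change of 0.37 ± 0.22 (SE) that was -0.13 with scaling by total counts and between 0.20 and 0.52 with 1 library left out. The lower old pool of Snhg6 lay only just above the higher young pool, and 127 bases of its exons overlap those of Mcmdc2 on the other strand.

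Snhg1 and Snhg12 differed least of the hosts in the main analysis, but most with scaling by total counts. Snhg1 had 87.6 and 97.3 CPM in the young and 91.6 and 97.1 CPM in the old libraries, with a log2 fold change of 0.03 ± 0.12 (SE) that was -0.46 with scaling by total counts. It was -0.14 with offsets for GC content and exonic length, and between -0.04 and 0.10 with 1 library left out. Snhg12 had 19.7 and 17.2 CPM in the young and 19.4 and 20.3 CPM in the old libraries, with a log2 fold change of 0.11 ± 0.17 (SE) that was -0.38 with scaling by total counts. For Snhg12 it was -4.0e-05 with the offsets and between 0.01 and 0.21 with 1 library left out. The ages of both overlapped. The snoRNAs themselves could not be followed: of 25 snoRNA gene models inside the hosts, 24 lie wholly within annotated host exons and 22 were listed at 0 in every library. Snord87, inside Snhg6 and outside its exons, had 19 reads over the 4 libraries, and Snora16a, inside Snhg12, had 5.

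All 8 genes passed the filter on low counts. The false discovery rate (FDR) of edgeR's quasi-likelihood test with Benjamini-Hochberg adjustment over 13692 genes was under 0.05 for 3 of the 8, Malat1, Neat1 and Kcnq1ot1, each lower with age. Over all genes tested, 2.26% were called, 0.628% as lower and 1.63% as higher at 22 months, and nothing is read from the count of 3, since the genes were chosen on this contrast. The ages did not overlap for 6 of the 8, as for 47.6% of all genes tested. Without young replicate 1 the log2 fold changes of Malat1, Neat1 and Kcnq1ot1 were -0.45, -0.51 and -0.35. Without young replicate 2 they were -0.44, -0.49 and -0.68. Leaving out old replicate 1 gave -0.50, -0.63 and -0.59, and leaving out old replicate 2 gave -0.38, -0.38 and -0.46. With offsets for GC content and exonic length 1 was called (Malat1, log2 fold change -0.50), while Neat1 was at -0.41 and Kcnq1ot1 at -0.38. Gas5 joined the 3 without old replicate 1, and scaling by total counts, which moved the median over all tested genes to -0.50 on the log2 scale, called the 3 and Snhg1 as lower, with Malat1 at -0.93, Neat1 at -0.99 and Kcnq1ot1 at -1.02. Relative to that median the log2 fold changes were -0.44 for Malat1, -0.50 for Neat1, -0.53 for Kcnq1ot1 and 0.43 for Gas5.

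**Figure D2:**
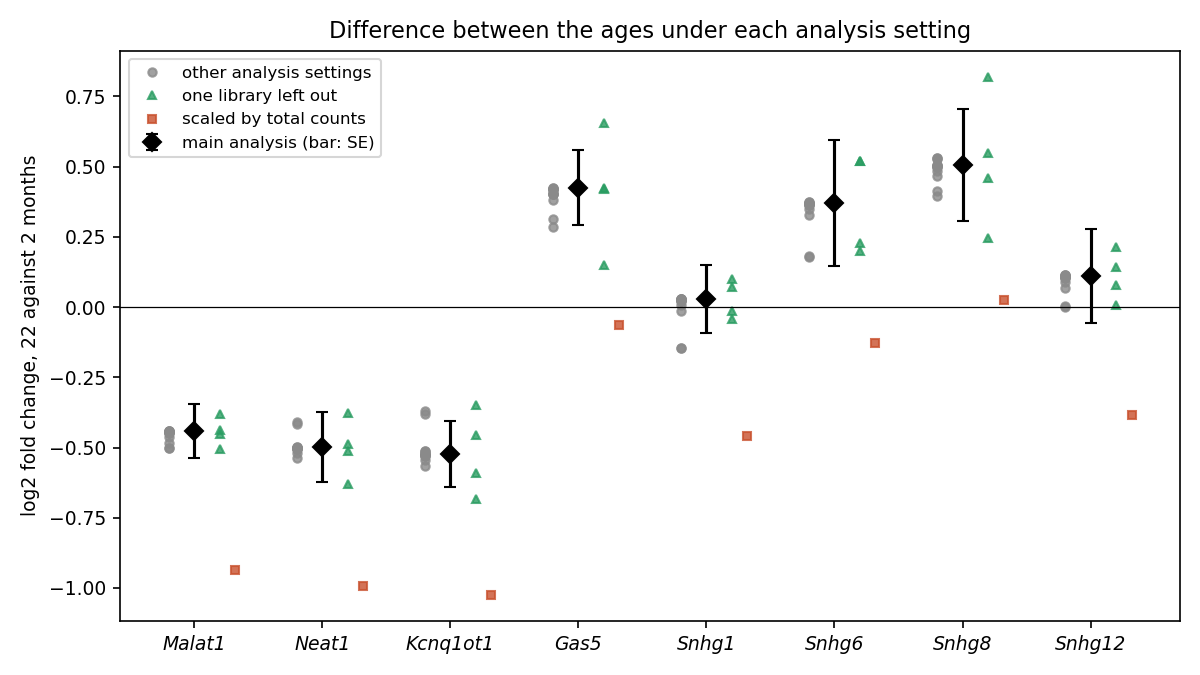
Log2 fold change at 22 against 2 months (vertical axis) of each RNA in the main analysis (black, SE bar), other settings (grey), with 1 library left out (green) and with scaling by total counts (red). Malat1, Neat1 and Kcnq1ot1 lie below 0 in every setting drawn. Gas5 and Snhg6 lie above 0 except with scaling by total counts, which lowers all 8.

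Levels per length gave another order than the counts. Divided by the length of their merged exons, Malat1 was highest with 177 ± 31.5 CPM per kb (SD over the 4 libraries of both ages), followed by Gas5 with 123 ± 28.8. These 2 changed places in 1 of the 4 libraries, old replicate 2, and their means were 204 and 105 CPM per kb in the young but 150.2 and 141 CPM per kb in the old libraries. Snhg1 followed with 31.5 ± 1.58 and Snhg8 with 18.0 ± 4.37 CPM per kb, each apart from its neighbours in every library. Snhg12 with 7.97 ± 0.571, Snhg6 with 7.85 ± 1.51, Kcnq1ot1 with 5.75 ± 1.36 and Neat1 with 5.03 ± 1.04 CPM per kb did not differ from the next in order beyond their spread over both ages, although Kcnq1ot1 was above Neat1 in each of the 4 libraries. Snhg6 and Kcnq1ot1 had means of 6.86 and 6.78 CPM per kb in the young but 8.85 and 4.72 CPM per kb in the old libraries, where they did not overlap. The median gene had 2.15 CPM per kb, and the 8 lay between the percentiles 75.7 and 99.7 of 13236 genes with a length. With the longest annotated transcript as the length, Gas5 came first with 181 CPM per kb. For Neat1 both lengths are 20771 bases, but its row also counts the short isoform, so its level per kb may be understated. The level of Kcnq1ot1 may hold reads from Kcnq1 introns.

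In length and base composition the 8 genes differ. Kcnq1ot1 and Neat1 are among the longest genes tested, with 2 and 75 genes longer, whereas Snhg6 and Snhg8 lie in the shortest decile. Over all genes tested, the median log2 fold change was lower at higher GC content, from 0.10 in the decile of lowest GC content to -0.21 in that of the highest. Malat1 with 42.5% GC and Kcnq1ot1 with 40.3% lie in GC deciles whose medians were 0.10, so their own values of -0.44 and -0.52 had the opposite sign. Neat1, Snhg8 and Snhg12 share a GC decile with a median of 0.03. By length, Neat1 and Kcnq1ot1 lie in a decile with a median of -0.03, the sign of their own values, and Malat1 in one with a median of 0.01. The part of GC content and length in these differences was not tested beyond the offsets given above.

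**Figure D3:**
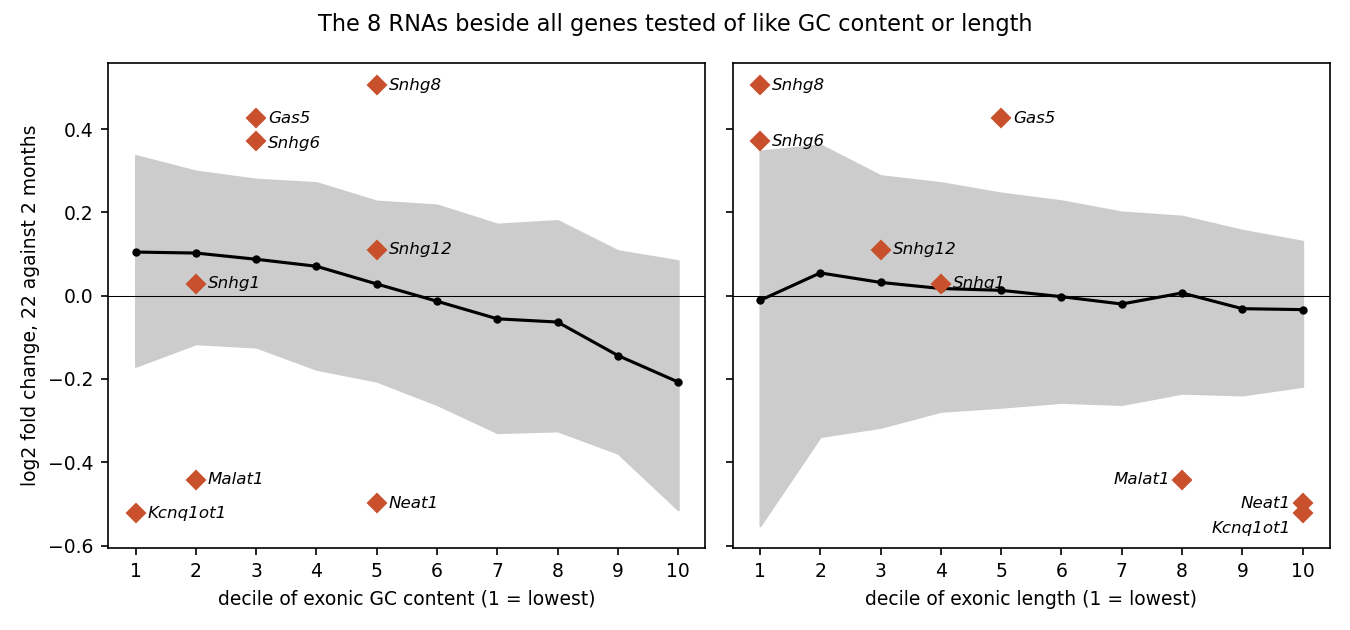
Log2 fold change at 22 against 2 months (vertical axis) by deciles of exonic GC content (left) and exonic length (right), as median (black line) and middle 50% of genes (grey), with the 8 RNAs as red diamonds. Malat1 and Kcnq1ot1 lie below 0 in deciles whose GC medians lie above 0.

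Other long noncoding RNAs were more often below 0 than above it, less so among those of at least 10 CPM. Of 1630 long noncoding RNA genes tested outside the 8, 13 were called lower and 7 higher, or 1.23% beside 2.26% of all genes, with a median log2 fold change of -0.29 against 0.02 for 11192 protein-coding genes. They had a median level of 1.66 CPM, and 31.96% were above 0. This level is near the filter, which asked for over 1 raw CPM in any 1 library. The old libraries had a larger mitochondrial share, so other genes reached 1 raw CPM more easily in the young. Genes near this floor could pass through the age where they were higher, and their signs are not read as a result. Among the 98 long noncoding RNAs with a mean of at least 10 CPM, 5 were called lower and 1 higher, or 6.12%, with a median of -0.07 and 42.9% above 0. Of 19 tested RNAs in the list of other nuclear or regulatory long noncoding RNAs, 0 were called by edgeR and 0 had an unadjusted p under 0.05, and the median was 0.03. Its 2 genes of lowest p were Rpph1, the RNA subunit of RNase P, at 0.98 ± 0.47 (SE, FDR 0.30), and the imprinted Peg13 at 0.84 ± 0.45 (SE, FDR 0.36), from at most 44 counts per library. With 1 library left out Rpph1 lay between 0.59 and 1.496 and Peg13 between 0.53 and 1.10, and with scaling by total counts they were at 0.47 and 0.36.

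Of 11 tested noncoding snoRNA hosts outside the 8, 0 were called by edgeR, beside 2.26% of all genes. Of the 11, 6 had an unadjusted p under 0.05, a level reached by 16.9% of all genes tested. The median log2 fold change was 0.28, and 8 of the 11 were above 0, against 49.5% of all genes tested. Of the 6, 5 were above 0 (Snhg4, Snhg5, Snhg14, Zfas1 and Dancr) and Snhg17 was below it, and with scaling by total counts only Dancr of the 5 was above 0. That scaling moved the median of all genes by -0.49, and relative to it the median of the 11 hosts was 0.29. With the GC and length offsets their median was 0.18. The 6 hosts are named beyond the rule, after their values were seen, and the 2 of lowest p are Snhg17 and Snhg5. Snhg17 had 307 and 299 counts in the young and 163 and 201 in the old libraries, at -0.51 ± 0.18 (SE, FDR 0.16) and between -0.73 and -0.32 with 1 library left out. Snhg5 had 623 and 425 counts in the young and 613 and 619 in the old libraries, at 0.45 ± 0.17 (SE, FDR 0.17) at 0.25 with the offsets, at -0.05 with scaling by total counts and between 0.17 and 0.79 with 1 library left out.

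Protein-coding genes that carry snoRNAs, found by annotation and leaving out those for ribosomal proteins, numbered 148 tested, with Snhg11, which the annotation types as protein-coding, counted both here and among the 11 hosts above, and their median difference was 0.04 on the log2 scale. Of these 2 were called higher and 1 lower, or 2.03% beside 2.26% of all genes. Nop58, which is also a core protein of the box C/D snoRNP, rose from 107 ± 0.238 to 159.9 ± 9.49 CPM (SD, n = 2 each), a log2 fold change of 0.58 ± 0.12 (SE, FDR 0.013) that was 0.09 with scaling by total counts. Gsr, glutathione reductase, rose by a log2 fold change of 0.57 ± 0.12 (SE, FDR 0.020), which was 0.08 with that scaling. Prrc2a fell by 0.55 on the log2 scale (SE 0.12, FDR 0.017), and was at -0.29 (FDR 0.26) with the GC and length offsets and at -1.04 with scaling by total counts.

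Of 29 tested paraspeckle proteins 1 was called, or 3.45% beside 2.26% of all genes, and 6 had an unadjusted p under 0.05, beside 16.9% of all genes. The called gene was Dazap1, an RNA-binding protein, which fell by 0.59 on the log2 scale (SE 0.15, FDR 0.043) and was at -0.50 (FDR 0.11) with the offsets and at -1.08 with scaling by total counts. The median of this list was -0.05. Of 32 nuclear speckle proteins and Malat1 processing factors 0 were called by edgeR and 5 had an unadjusted p under 0.05, beside 16.9% of all genes, with a median of -0.01. The kinase Clk3, at -0.62 ± 0.19 (SE, FDR 0.096), and the RNase P protein Rpp38, at 0.61 ± 0.25 (SE, FDR 0.22), had the lowest p. With scaling by total counts they were at -1.12 and 0.12.

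Of 22 NMD factors 0 were called by edgeR and 4 had an unadjusted p under 0.05, beside 16.9% of all genes, with a median log2 fold change of 0.08. The helicase Upf1, on which NMD depends, had 23.1 ± 3.55 CPM in the young and 15.2 ± 0.153 CPM in the old libraries (SD, n = 2 each). It was at -0.61 ± 0.17 (SE, FDR 0.072), at -0.44 (FDR 0.26) with the offsets and at -1.09 with scaling by total counts. Its ages did not overlap, as for 47.6% of all genes tested. Pnrc2 was at 0.32 ± 0.12 (SE, FDR 0.19), at 0.13 with the offsets and at -0.17 with scaling by total counts. Of 20 snoRNP proteins and assembly factors Nop58 alone was called, or 5% beside 2.26% of all genes, and it was the 1 with an unadjusted p under 0.05. The median was 0.01.

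Genes near the 8 gave no call, beside 2.26% called over all genes tested, a share at which lists this short may hold none. Of 12 tested genes of the Kcnq1 imprinted domain 0 were called by edgeR and 2 had an unadjusted p under 0.05, beside 16.9% of all genes. Kcnq1 was at -0.17 ± 0.13 (SE, FDR 0.53), at -0.04 with the offsets and at -0.67 with scaling by total counts. Ascl2, an ISC transcription factor encoded in this domain, had 616 and 658 counts in the young and 715 and 658 in the old libraries, at 0.33 ± 0.13 (SE, FDR 0.20), and Nap1l4, a histone chaperone, was at 0.30 ± 0.14 (SE, FDR 0.28). Both were below 0 with scaling by total counts, at -0.16 and -0.19. Cdkn1c, a cell cycle inhibitor known to be silenced in cis by Kcnq1ot1, had 19 counts over the 4 libraries and was not tested. Of 13 tested neighbours 0 were called by edgeR and 1, Sgk3, had an unadjusted p under 0.05, at -0.55 ± 0.24 (SE, FDR 0.26), between -0.76 and -0.30 with 1 library left out and at -1.04 with scaling by total counts. Serpinc1, with the next lowest p, was at 0.76 ± 0.51 (SE, FDR 0.48), between 0.20 and 1.17 with 1 library left out and at 0.28 with scaling by total counts.

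**Figure D4:**
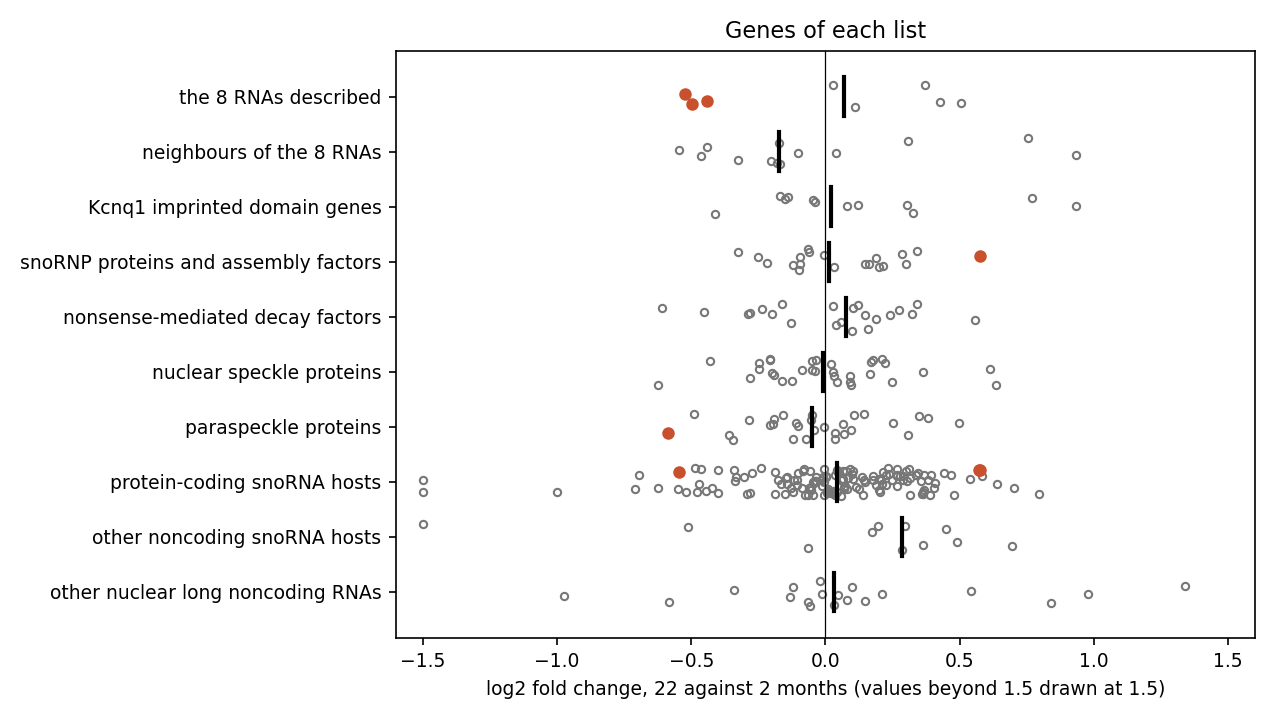
Log2 fold change at 22 against 2 months (horizontal axis) of every tested gene of each list, with FDR under 0.05 filled in red and the list's median as a black bar. The other noncoding snoRNA hosts have a median of 0.28 and no called gene.

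The genes whose levels followed these RNAs most closely over the 4 libraries were sought by the distance between centred log2 CPM values. Nearest to Malat1 were Mroh2a (distance 0.0240), Gm45457 (0.0489) and Tle3 (0.0545). Nearest to Neat1 were Arhgef18 (0.0250), Prr12 (0.0534) and Tsc1 (0.0632), and nearest to Gas5 were Nceh1 (0.0316), Rad51b (0.0412) and Snap23 (0.0495). None of these 9 had an FDR under 0.05 by edgeR. Each profile holds only 4 values, 2 per age, and the distances are a description.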

How the data were processed

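Per the labels, RNA of sorted ISCs was amplified by SPIA and sequenced as single-end reads. The authors deposited raw read counts per gene; their processing notes name Trimmomatic 0.30, STAR 2.4.2a, featureCounts and GRCm38. The strand setting is not given in the sources used here. There are no molecular identifiers, so intervals cover counting error only. The 4 columns were mapped to libraries by their labels.

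Here, a gene was kept where any 1 library had over 5 reads and over 1 CPM, TMM factors were computed, and ages were compared with edgeR 4.0.16 (quasi-likelihood test, Benjamini-Hochberg FDR, threshold 0.05) in R 4.3.3, tested on simulated data. Alternatives included limma 3.58.1 and DESeq2 1.42.0. Lengths, GC content and neighbours came from GENCODE vM21, promoters from RefSeq. Profiles used log2 CPM with a prior count of 2 over genes with a mean of at least 10 CPM. Marker sums are over all listed genes.

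The 8 genes and all lists were chosen with earlier results of these data known. Named are the 8 genes, and of each list the genes with FDR under 0.05, up to 4 in each direction, or else the 2 of lowest p, plus Kcnq1, Cdkn1c and Ascl2. Per the study, the 2 pools of an age hold different animals, so p-values measure the spread between pools.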

Additional observations from a re-analysis of the deposited data

How the results depend on the processing

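Main counts with FDR under 0.05 were 309 genes, 3 of the 8 RNAs and 4 of 296 listed genes. For all genes the count was 197 with DESeq2, 611 with edgeR's likelihood ratio test, 554 without a filter, 4650 with scaling by total counts, of which 96 were higher (against 223 of 309), 121 with GC and length offsets and 54 with these and the replicate block. For the 8 RNAs it was 4 without a filter (Gas5 added), 4 with total counts (Snhg1 added), 1 with the offsets and 0 with the offsets and the block. In that last fit the log2 fold changes were -0.50 for Malat1, -0.42 for Neat1 and -0.37 for Kcnq1ot1. For the listed genes it was 8 without a filter, 131 with total counts, 2 with the offsets and 0 with the offsets and the block. Leaving out each library gave 147 to 691 genes, 0 to 4 of the 8 RNAs and 2 to 17 listed genes; a fit that leaves 1 library of an age assumes that it varies like the other age.

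The pools share replicate numbers 1 and 2 between the ages, and the main fit takes no pairing from them. Across genes the deviations of same-numbered pools were not correlated (r of -0.00015). This correlation cannot exclude handling shared by same-numbered pools that touched part of the genes. With the replicate block the counts were 623 genes, 4 of the 8 RNAs (Gas5 added) and 10 listed genes. Among these 10 were Upf1 (FDR 0.03), Clk3 (FDR 0.04) and Snhg5 (FDR 0.041), which the main fit did not call. The limits are 2 pools per age, low counts for Snhg6, Snhg8 and Snhg12, a mitochondrial share that differs with age and cannot be told apart from it, and annotation overlaps for Kcnq1ot1 and Snhg6. No sign of Malat1, Neat1 or Kcnq1ot1 changed in the 14 alternatives or when a library was left out. The cause of the moved counts was not tested.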
